A study of Homo sapiens with 6 samples.

Results

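A set of 10 genes in common use as readouts of the epithelial to mesenchymal transition was followed in 22Rv1, a human prostate carcinoma cell line, after knockdown of the chromatin reader ZMYND11. They were chosen by name: CDH1, EPCAM, CDH2, VIM, FN1, TWIST1, ZEB1, ZEB2, SNAI1 and SNAI2. All 10 were found among the 35322 gene symbols of the count table. RNA was sequenced from 3 groups of 2 libraries each: control cells, whose genotype is given as WT, and ZM11-kd1 and ZM11-kd2 cells, whose genotype is given as ZMYND11 knockdown. The labels name no treatment for any group. The study's methods describe lentiviral short hairpin RNAs with puromycin selection, but the labels assign no hairpin to either knockdown and no vector to the control cells. The paper mentions control hairpins for its sequenced cells, while the labels give WT, so whether the controls carried a vector is not settled. Nothing states whether the 2 libraries of a group came from separate cultures, so every p-value here measures the spread between libraries, which may be technical. ZM11-kd1 and ZM11-kd2 were both compared with the same 2 control libraries.

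In an epithelial sheet, E-cadherin (CDH1) holds neighbouring cells together at adherens junctions, and EPCAM adds a further adhesion molecule of the epithelial surface. During the transition these are lowered while N-cadherin (CDH2), the intermediate filament protein vimentin (VIM) and the matrix glycoprotein fibronectin (FN1) are raised, and cells become motile. The zinc finger proteins SNAI1, SNAI2, ZEB1 and ZEB2 bind E-box motifs and repress CDH1, TWIST1 is a basic helix-loop-helix factor of the same program, and the miR-200 family and the ZEB factors repress each other. In carcinoma cells the program is often partial, with epithelial and mesenchymal genes expressed side by side.

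Total counts per library ran from 26844128 to 38193748. ZMYND11 itself was counted 4283 and 4179 times in the control libraries, 941 and 773 times in ZM11-kd1 and 770 and 779 times in ZM11-kd2. Its level fell by 2.35 in ZM11-kd1 and by 2.64 in ZM11-kd2 on the log2 scale, so both labels were borne out. Each library was closest to the other library of its group, with correlations between the 2 libraries of a group from 0.992 to 0.993. All 12 luminal prostate markers were detected, and KLK3, which encodes prostate-specific antigen, fell from 1235 and 1217 counts in control to 147 and 121 in ZM11-kd1 and to 254 and 290 in ZM11-kd2. Of other cell types, KRT6A (basal epithelium), KDR (endothelium) and CD3E (T cells) had 0 counts in every library. The summed level of 10 fibroblast and stroma markers was 34.0 to 36.8 TMM-normalized CPM (counts scaled to library size with trimmed mean factors, which set the bulk of genes level between libraries) in control, 87.0 to 87.2 in ZM11-kd1 and 45.6 in both ZM11-kd2 libraries. Most of that sum was COL1A1, a collagen gene, while the stromal markers THY1 and POSTN had at most 3 counts in any library. Basal markers summed to 1.74 to 2.40 CPM in control, 7.43 to 7.92 in ZM11-kd1 and 1.88 to 2.80 in ZM11-kd2, with KRT15 and ITGB4 most of the counts and KRT5 at most 3 counts in any library. Endothelial markers summed to 1.18 to 2.58 CPM and leukocyte markers to 1.99 to 4.06 CPM over all libraries, the latter highest in ZM11-kd2. Whether these shifts bear on the genes below was not tested, and in bulk RNA fewer cells of a type and less RNA per cell cannot be told apart.

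No member was below detection, taken here as at most 3 counts in every library, and all 10 passed the filter on low counts. Those named ZEB and SNAI were nevertheless scarce: ZEB2 had 5 to 22 counts in a library, ZEB1 12 to 111, SNAI1 15 to 34 and SNAI2 14 to 37. Divided by transcript length, the control levels ran in the order CDH1 (87.5 CPM per kilobase), EPCAM (70.8), TWIST1 (9.42), FN1 (4.71), CDH2 (4.25), VIM (2.77), SNAI1 (0.478), SNAI2 (0.471), ZEB1 (0.110) and ZEB2 (0.0316). SNAI1 and SNAI2, neighbours in this order, did not differ beyond their spread. In ZM11-kd1 EPCAM (121 CPM per kilobase) lay above CDH1 (101), and VIM (30.5) lay above CDH2 (8.88) and FN1 (2.84). In ZM11-kd2 CDH1 was again the most abundant per length (96.3), followed by EPCAM (86.0), TWIST1 (18.5), VIM (10.3), CDH2 (6.39) and FN1 (2.0). ZEB1 (0.461) there lay above SNAI1 (0.329) and SNAI2 (0.270), although the ranges of neighbours among these 3 overlapped.

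**Figure D1:**
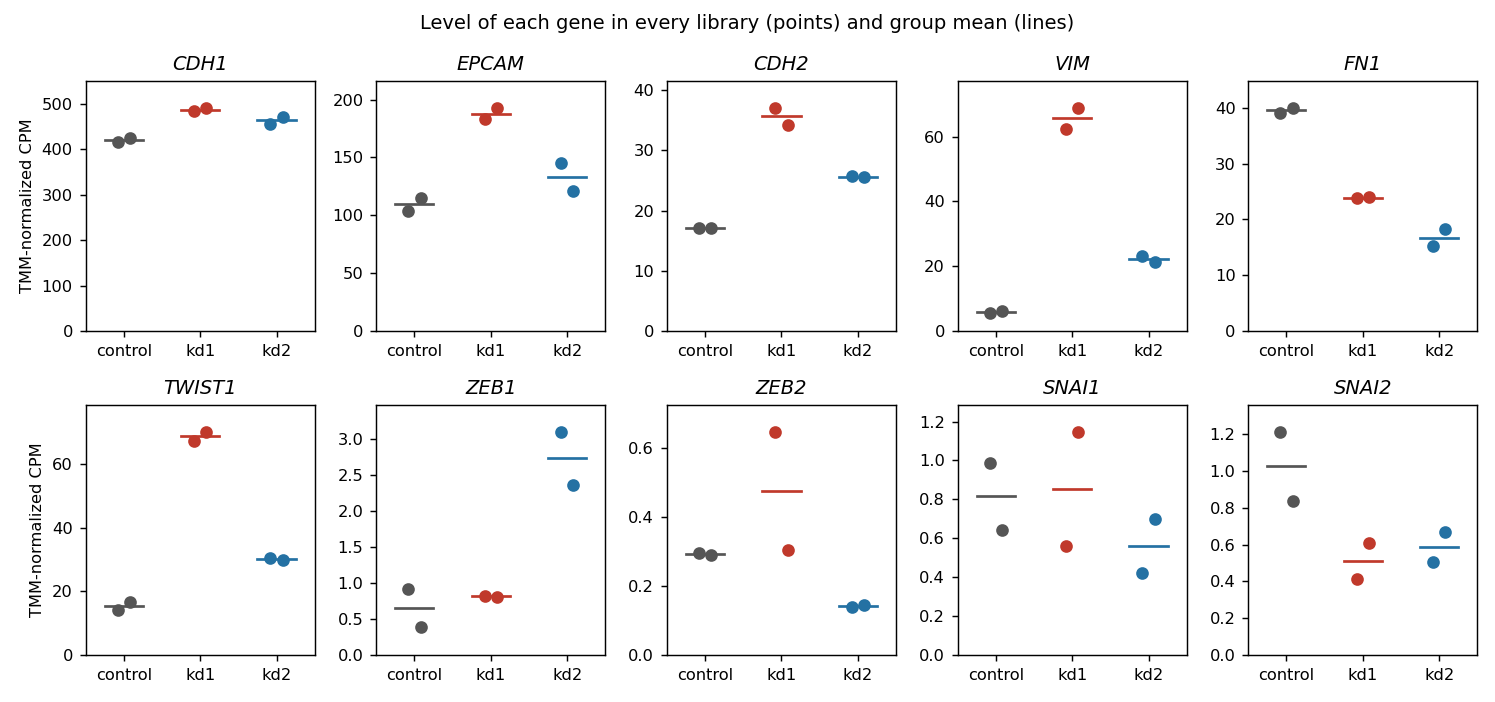
TMM-normalized CPM (y axis, linear from 0, scaled for each gene) of the 10 genes in control, ZM11-kd1 (kd1) and ZM11-kd2 (kd2). Each point is a library and each line the mean of 2 libraries. VIM, TWIST1, CDH2 and EPCAM were highest in both ZM11-kd1 libraries, FN1 was highest in both controls, and ZEB1 was highest in both ZM11-kd2 libraries.

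VIM, TWIST1 and CDH2 rose in both knockdowns, and more in ZM11-kd1 than in ZM11-kd2. EPCAM rose in both. FN1, a mesenchymal gene, fell in both, though its call in ZM11-kd1 was lost after adjustment for GC content and length. CDH1 lay within 0.21 of control on the log2 scale, on a side that turned with the scaling of the libraries. ZEB1 rose in ZM11-kd2, where it was also higher than in ZM11-kd1. In ZM11-kd1 5 members were called higher and 2 lower at an adjusted p under 0.05 in edgeR's quasi-likelihood test, which is 70% of the 10. Of all 16510 genes tested 78.0% were called, 38.2% higher and 39.8% lower. In ZM11-kd2 6 were called higher and 1 lower, against 73.4% called among all genes (36.5% higher and 36.9% lower). With shares this close to the background, the number of members called is not in itself a result about them. The median log2 fold change of the members was 0.52 in ZM11-kd1 and 0.21 in ZM11-kd2, and that of all genes was -0.03 in each. These values depend in part on how libraries were scaled. With library totals alone in place of TMM, the median over all genes moved to -0.38 in ZM11-kd1 and -0.20 in ZM11-kd2. The split of all called genes in ZM11-kd1 then went from 6310 higher and 6572 lower to 4596 higher and 8420 lower, and that of the members from 5 and 2 to 4 and 3. In ZM11-kd2 all called genes went from 6031 higher and 6087 lower to 4967 and 7220, and the members from 6 and 1 to 4 and 1, as CDH1 and EPCAM were no longer called. Without control replicate 1 the members in ZM11-kd2 were also 4 higher and 1 lower.

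**Figure D2:**
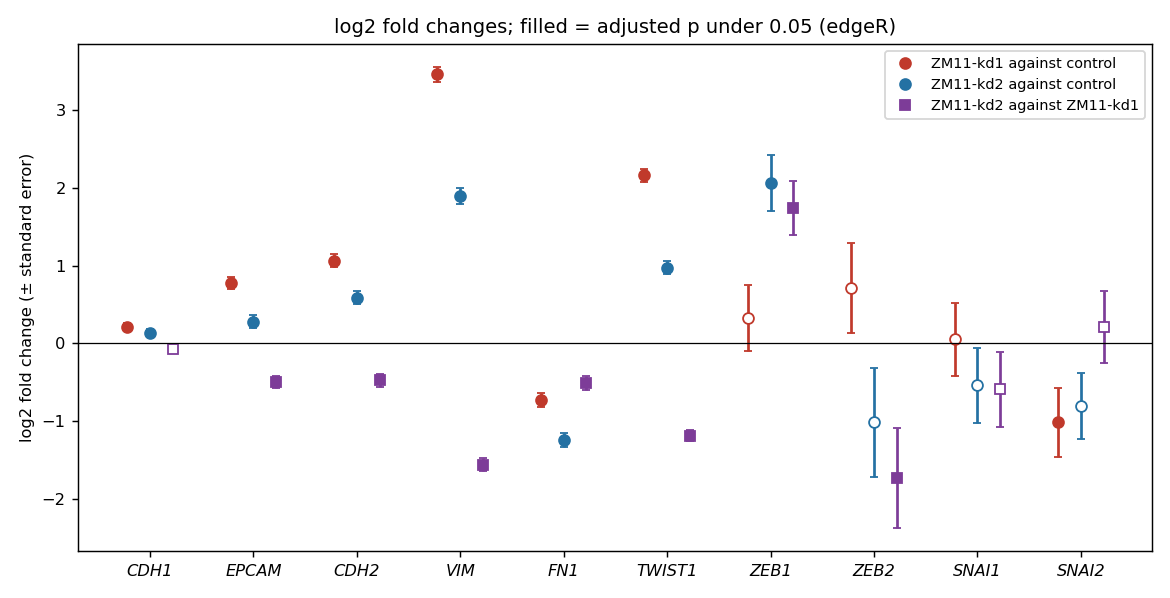
Log2 fold change (y axis) of the 10 genes in each of 3 comparisons, with bars of 1 standard error from edgeR and n = 2 libraries per group. Filled symbols have an adjusted p under 0.05. VIM rose by 3.46 and 1.90 and TWIST1 by 2.16 and 0.98, and the symbols for CDH1 lie within 0.21 of 0. With library totals alone CDH1 lay on the other side of 0 in all 3 comparisons.

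The epithelial adhesion genes come first. CDH1 lies on chromosome 16 (chr16:68737292-68835537, plus strand, GRCh38) and its canonical transcript has 16 exons. It was counted 12678 and 13218 times in control, 16433 and 14538 times in ZM11-kd1 and 16304 and 16110 times in ZM11-kd2. As TMM-normalized CPM these were 417 and 426 in control, 484 and 491 in ZM11-kd1 and 456 and 470 in ZM11-kd2. The groups did not overlap, with both controls lowest. The log2 fold change was 0.21 (SE 0.05) in ZM11-kd1 and 0.14 (SE 0.05) in ZM11-kd2, with edgeR adjusted p-values of 0.00126 and 0.0207, but with library totals alone it was -0.14 (adjusted p = 0.0117) and -0.032, and after adjustment for GC and length 0.62 in ZM11-kd1 and 0.25 in ZM11-kd2, both called. The direction for CDH1 therefore depends on the scaling, and its call in ZM11-kd2 was lost in 6 of 14 other settings, among them those without control replicate 1 (0.12) and without control replicate 2 (0.15). Against ZM11-kd1, ZM11-kd2 differed by -0.07 (SE 0.05, edgeR adjusted p = 0.200), which was 0.11 (adjusted p = 0.0465) with library totals alone and -0.37 (adjusted p = 1.87e-07) after adjustment for GC and length.

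EPCAM (chr2:47345158-47387601, plus strand, 9 exons) was counted 3157 and 3582 times in control, 6213 and 5708 times in ZM11-kd1 and 5186 and 4147 times in ZM11-kd2. Its levels were 104 and 115 CPM in control, 183 and 193 in ZM11-kd1 and 145 and 121 in ZM11-kd2. Both ZM11-kd1 libraries were clearly highest, and the lower ZM11-kd2 library lay just above the higher control. EPCAM rose 1.71-fold in ZM11-kd1 (log2 0.78, SE 0.08, edgeR adjusted p = 3.57e-07), and this call was kept under all 14 other settings. In ZM11-kd2 the rise was 1.22-fold (log2 0.28, SE 0.08, edgeR adjusted p = 0.00498). The call in ZM11-kd2 was lost without control replicate 1 (log2 0.21, adjusted p = 0.0876) and with library totals alone (log2 0.11, adjusted p = 0.182), and with any library left out the value ran from 0.14 to 0.41, the former without ZM11-kd2 replicate 1.

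The mesenchymal genes split. CDH2, the partner of CDH1 in the cadherin switch, lies on chromosome 18 (chr18:27932879-28177946, minus strand, 16 exons). It was counted 519 and 531 times in control, 1259 and 1014 times in ZM11-kd1 and 919 and 876 times in ZM11-kd2. The 3 groups were separate, with control lowest and ZM11-kd1 highest. CDH2 rose from 17.1 ± 0.03 CPM (SD, n = 2) to 35.7 ± 1.99 in ZM11-kd1, a 2.09-fold rise (log2 1.06, SE 0.08, edgeR adjusted p = 1.59e-08). The rise in ZM11-kd2, to 25.6 ± 0.11 CPM, was 1.5-fold (log2 0.59, SE 0.08, edgeR adjusted p = 1.51e-05).

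VIM had the largest change of the members in ZM11-kd1. It lies on chromosome 10 (chr10:17228241-17237593, plus strand, 10 exons) and was counted 175 and 192 times in control, 2121 and 2039 times in ZM11-kd1 and 828 and 731 times in ZM11-kd2. Control libraries were thus far below all knockdown libraries, and ZM11-kd1 was far above ZM11-kd2. VIM rose 11-fold in ZM11-kd1, from 5.97 ± 0.31 to 65.7 ± 4.55 CPM (log2 3.46, SE 0.10, edgeR adjusted p = 4.35e-13). Of the 16510 genes tested, 134 had a larger rise. In ZM11-kd2 it rose 3.73-fold, to 22.3 ± 1.30 CPM (log2 1.90, SE 0.10, edgeR adjusted p = 4.56e-10), and 553 genes had a larger rise. An antisense gene, VIM-AS1, shares 641 exon bases with VIM on the opposite strand, and whether reads were counted by strand is not stated, so reads of the pair cannot be told apart over those bases. VIM-AS1 had 82 and 95 counts in control, 437 and 354 in ZM11-kd1 and 210 and 188 in ZM11-kd2, which is 46.9 and 49.5 per 100 VIM counts in control, 20.6 and 17.4 in ZM11-kd1 and 25.4 and 25.7 in ZM11-kd2. It too rose in both knockdowns, by 2.11 and 0.98 on the log2 scale.

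FN1 went the other way. This gene (chr2:215360440-215436073, minus strand, 46 exons) was counted 1187 and 1241 times in control, 807 and 709 times in ZM11-kd1 and 544 and 626 times in ZM11-kd2. All knockdown libraries were below both controls, and ZM11-kd2 was the lowest group. FN1 fell to 0.604 of the control level in ZM11-kd1 (log2 -0.73, SE 0.09, edgeR adjusted p = 2.84e-06) and to 0.424 in ZM11-kd2 (log2 -1.24, SE 0.09, edgeR adjusted p = 1.51e-08). Adjustment for gene GC content and length reduced the ZM11-kd1 value to -0.12 and ended its call (adjusted p = 0.161), while the fall in ZM11-kd2 was called under all 14 other settings.

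Ratios of counts within a library do not depend on how libraries are scaled. Per 100 counts of CDH1, VIM had 1.38 and 1.45 counts in control, 12.9 and 14.0 in ZM11-kd1 and 5.08 and 4.54 in ZM11-kd2. For CDH2 the ratios were 4.09 and 4.02, then 7.66 and 6.97, then 5.64 and 5.44 in the same order. TWIST1 had 3.42 and 3.87 in control, 13.9 and 14.3 in ZM11-kd1 and 6.70 and 6.34 in ZM11-kd2. All 3 were separate between the groups, lowest in control and highest in ZM11-kd1. FN1 gave 9.36 and 9.39 in control, 4.91 and 4.88 in ZM11-kd1 and 3.34 and 3.89 in ZM11-kd2, separate and in the opposite sense. EPCAM gave 24.9 and 27.1 in control, 37.8 and 39.3 in ZM11-kd1 and 31.8 and 25.7 in ZM11-kd2, so that ZM11-kd2 overlapped control. With 2 libraries against 2, an exact two-sided permutation test cannot go below p = 0.333, so the ratios are given without a test.

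**Figure D3:**
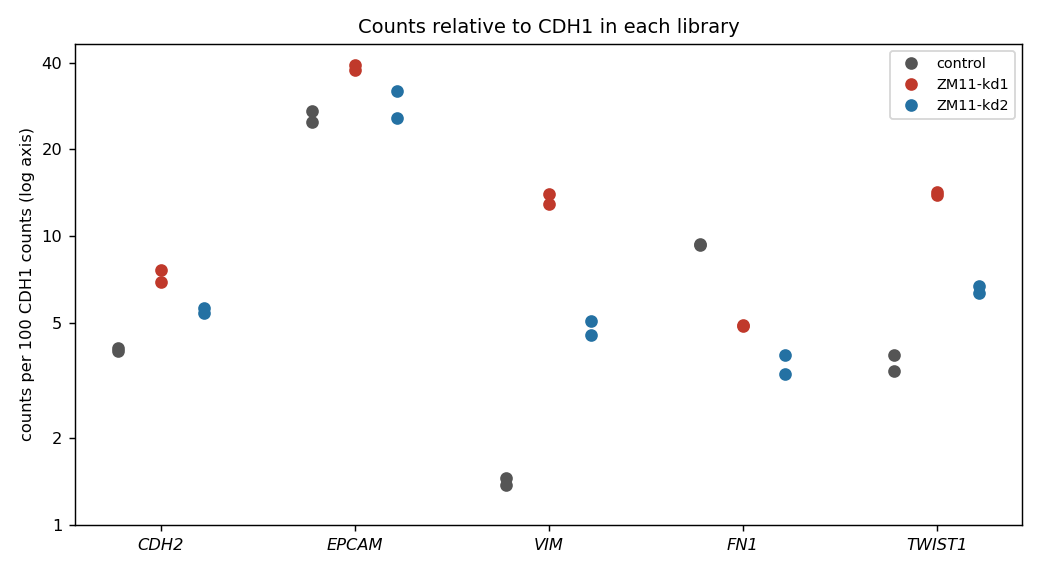
Counts of 5 genes per 100 counts of CDH1 in the same library (y axis, log scale), with a point for each of the 6 libraries. VIM went from 1.38 and 1.45 in control to 12.9 and 14.0 in ZM11-kd1, FN1 fell below both controls in all knockdown libraries, and EPCAM in ZM11-kd2 overlapped control.

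Among the transcription factors, TWIST1 was the abundant one. It lies on chromosome 7 (chr7:19020991-19117636, minus strand, 2 exons in the canonical transcript) and was counted 433 and 512 times in control, 2280 and 2079 times in ZM11-kd1 and 1093 and 1022 times in ZM11-kd2. The 3 groups were separate in the same order as for VIM. TWIST1 rose 4.47-fold in ZM11-kd1, from 15.4 ± 1.60 to 68.7 ± 2.20 CPM (log2 2.16, SE 0.08, edgeR adjusted p = 8.43e-12). In ZM11-kd2 it rose 1.97-fold, to 30.2 ± 0.54 CPM (log2 0.98, SE 0.08, edgeR adjusted p = 8.81e-08). The ZM11-kd1 value was 1.58 after adjustment for GC and length, and was called there too.

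ZEB1 (chr10:31318495-31529814, plus strand, 9 exons) was counted 28 and 12 times in control, 28 and 24 times in ZM11-kd1 and 111 and 81 times in ZM11-kd2. The ZM11-kd2 libraries stood above the other 4, among which control and ZM11-kd1 overlapped. ZEB1 rose 4.19-fold in ZM11-kd2 (log2 2.07, SE 0.36, edgeR adjusted p = 0.000132). The size leaned on which control was used, at 2.81 without control replicate 1 and 1.57 without control replicate 2, and it was called in both cases. In ZM11-kd1 the log2 difference from control was 0.33 (SE 0.42, edgeR adjusted p = 0.492), and -0.027 with library totals alone. Without control replicate 1 it was 1.07, without control replicate 2 it was -0.17, and after adjustment for GC and length it was 0.95 and called (adjusted p = 0.0485). The antisense gene ZEB1-AS1, which shares no exon bases with ZEB1 in the annotation used, was higher in both knockdowns by 1.51 and 1.01 on the log2 scale, with 249 and 273 counts in control, 795 and 737 in ZM11-kd1 and 583 and 611 in ZM11-kd2. After adjustment for GC and length its ZM11-kd1 value was 0.60.

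ZEB2 (chr2:144364364-144521057, minus strand, 10 exons), the paralog of ZEB1, was the scarcest member, with 9 and 9 counts in control, 22 and 9 in ZM11-kd1 and 5 and 5 in ZM11-kd2. Both ZM11-kd2 libraries were lowest, and 1 of the ZM11-kd1 libraries was level with control in counts. Neither knockdown passed the test against control, at 0.71 (SE 0.58, edgeR adjusted p = 0.274) for ZM11-kd1 and -1.02 (SE 0.70, edgeR adjusted p = 0.203) for ZM11-kd2. The ZM11-kd1 value was 0.057 without ZM11-kd1 replicate 1 and 1.14 without ZM11-kd1 replicate 2, and after adjustment for GC and length it was 1.56 and called (adjusted p = 0.0224). A processed copy, ZEB2P1, had 0 to 3 counts in a library.

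Mature miRNAs of the miR-200 family, the known regulators of ZEB1 and ZEB2, are shown because the 2 seeds of the family tell which sites to look for in the members. Capitals mark the seed, bases 2 to 8 of the mature RNA, as given in RefSeq (GRCh38.p14).
hsa-miR-141-3p: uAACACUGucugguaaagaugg
hsa-miR-200a-3p: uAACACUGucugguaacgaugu
hsa-miR-200b-3p: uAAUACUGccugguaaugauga
hsa-miR-200c-3p: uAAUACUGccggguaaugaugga
hsa-miR-429: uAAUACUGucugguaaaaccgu

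The first pair share a seed that pairs with CAGTGTT, and the last 3 share a seed that differs by a single base and pairs with CAGTATT. In the 2540 bases of the canonical ZEB1 3′ UTR these sites occurred 3 and 6 times, and in the 5370 bases of ZEB2 4 and 5 times. Among 3′ UTRs of like length to that of ZEB1, 0.647% had as many CAGTGTT sites and 0.0381% as many CAGTATT sites, and for ZEB2 the shares were 1.21% and 0.0809%. FN1 had 2 CAGTATT sites and SNAI2 had 1, with shares of 0.227% and 12.2% for as many sites. The other 6 members had neither site. A match of letters is a description and not evidence that a miRNA acts there. The libraries measured the host transcript MIR200CHG of the miR-200c and miR-141 hairpins, not the mature RNAs. MIR200CHG had 77 and 56 counts in control, 247 and 229 in ZM11-kd1 and 166 and 128 in ZM11-kd2, separate between the groups. It rose 3.46-fold in ZM11-kd1 (edgeR adjusted p = 9.29e-07) and 1.94-fold in ZM11-kd2 (edgeR adjusted p = 0.000783), so that it and ZEB1 were both higher than control in ZM11-kd2. Its log2 fold change in ZM11-kd1, 1.79, was 1.15 after adjustment for GC and length.

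SNAI1 (chr20:49982980-49988886, plus strand, 3 exons) was counted 30 and 20 times in control, 19 and 34 times in ZM11-kd1 and 15 and 24 times in ZM11-kd2. All 3 groups overlapped. Its log2 differences from control were 0.05 (SE 0.47, edgeR adjusted p = 0.924) and -0.54 (SE 0.48, edgeR adjusted p = 0.327). SNAI2 (chr8:48917598-48921740, minus strand, 3 exons) was counted 37 and 26 times in control, 14 and 18 times in ZM11-kd1 and 18 and 23 times in ZM11-kd2. Its 4 knockdown libraries were below both controls. The log2 difference was -1.01 in ZM11-kd1 (SE 0.44, edgeR adjusted p = 0.0476) and -0.80 in ZM11-kd2 (SE 0.42, edgeR adjusted p = 0.102). The ZM11-kd1 value passed the threshold narrowly and was lost when any 1 of the 6 libraries was left out (log2 -1.31 to -0.73) and in the DESeq2 Wald test (adjusted p = 0.168). In ZM11-kd2 SNAI2 was called with at least 10 counts in every library (-0.84, adjusted p = 0.0441) and after adjustment for GC and length (-0.97, adjusted p = 0.0494).

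E-boxes of the form that SNAI and ZEB proteins bind, CACCTG on either strand (CAGGTG on the other), were looked for in RefSeq promoter windows of 250 bases before to 50 after a start. Windows were on hand for 5 of the 10 members, CDH2, VIM, FN1, ZEB1 and ZEB2, in 12 windows. Sites were found in 2 windows, both of them among the 7 starts of ZEB1, with 1 and 3 sites. Of 35116 promoter windows of all genes, 20.6% held at least 1 site. No match says only that these letters are not in that window.

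The direct comparison of the knockdowns called 1 member higher and 6 lower in ZM11-kd2 than in ZM11-kd1, where 68.8% of all genes were called (34.9% higher and 33.8% lower). With library totals alone the members split into 2 higher and 6 lower, and all called genes went from 5767 higher and 5588 lower to 7065 and 4506, with the median of all genes moving from 0.02 to 0.21. VIM, TWIST1 and CDH2 were all lower in ZM11-kd2, by 1.56 for VIM (SE 0.08, edgeR adjusted p = 5.66e-10), 1.18 for TWIST1 (SE 0.08, edgeR adjusted p = 4.80e-09) and 0.48 for CDH2 (SE 0.08, edgeR adjusted p = 7.50e-05) on the log2 scale. EPCAM was lower by 0.50 (SE 0.08, edgeR adjusted p = 4.91e-05), and so was FN1, by 0.51 (SE 0.09, edgeR adjusted p = 0.000206). The sizes moved with the processing, to -0.29 for CDH2, -0.31 for EPCAM and -0.33 for FN1 with library totals alone, and to -0.81 for CDH2, -0.83 for FN1 and -0.72 for TWIST1 after adjustment for GC and length, all still called. ZEB1 was the member called higher, by 1.74 (SE 0.35, edgeR adjusted p = 0.000457), or 1.19 after that adjustment. ZEB2 was lower by 1.73 (SE 0.64, edgeR adjusted p = 0.0273), a call on 5 and 5 against 22 and 9 counts that was lost in 7 of the 12 settings in which it could be tested. The paralogs ZEB1 and ZEB2 thus lay on opposite sides of 0 in this comparison. ZMYND11 was itself lower in ZM11-kd2 by 0.28 (edgeR adjusted p = 0.00265), which is -0.098 and not called with library totals alone, and -0.71 after adjustment for GC and length.

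**Figure D4:**
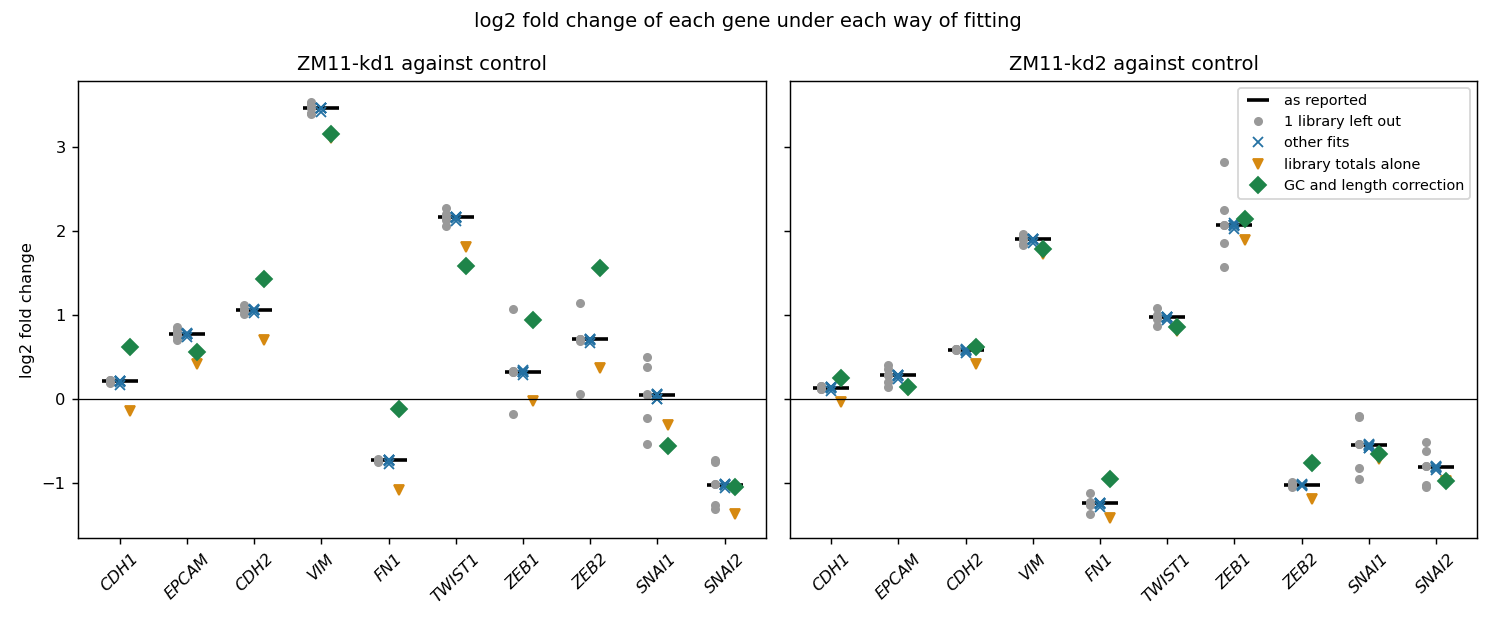
Log2 fold change against control (y axis) of the 10 genes as reported (black bars), with 1 library left out (gray points), with other filters, tests or fits (blue crosses), with library totals alone (orange triangles) and after adjustment for GC and length (green diamonds). VIM, TWIST1 and CDH2 stayed above 0 throughout and FN1 below it, while CDH1 crossed 0 with library totals alone (-0.14 and -0.032), and SNAI1 and ZEB1 crossed it in ZM11-kd1.

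Beyond the members, 4 lists of genes from the same biology were read, together with MIR200CHG above. Of 54 further epithelial genes, all tested, 28 rose, 17 fell and 9 were not called in ZM11-kd1, with a median log2 fold change of 0.29, and 31 rose, 15 fell and 8 were not called in ZM11-kd2, with a median of 0.25. These are 83.3% and 85.2% of the list, beside 78.0% and 73.4% called among all genes, whose median was -0.03 in each. With library totals alone the splits were 21 and 21, and 25 and 19. Those of all called genes were then 4596 higher and 8420 lower, and 4967 and 7220. KRT19, a simple epithelial keratin, rose from 70.6 ± 5.12 to 254 ± 19.2 CPM in ZM11-kd1 (log2 1.85, SE 0.08, edgeR adjusted p = 4.91e-11), and by 1.07 in ZM11-kd2. ELF3, an epithelial transcription factor, rose in ZM11-kd1 by 1.84 and in ZM11-kd2 by 1.83, from 69.0 ± 1.24 to 247 ± 6.14 and 246 ± 3.13 CPM. DSC2, a desmosomal cadherin, rose by 1.78 and 1.20, and CTNND1, the catenin p120 that binds the tail of cadherins, by 1.57 and 1.32. GRHL1, an epithelial factor, rose in ZM11-kd2 by 1.35 and had 0.16 in ZM11-kd1 (edgeR adjusted p = 0.0966). Junction genes were also among the falls. TJP1, the tight junction scaffold ZO-1, went from 42.5 ± 2.29 to 10.5 ± 0.18 CPM in ZM11-kd1 (log2 -2.01) and had -0.58 in ZM11-kd2, and DSP, the desmosomal plaque protein desmoplakin, had log2 fold changes of -1.83 and -1.32. ERBB3, a receptor of the EGFR family, had -1.91 and -1.72, and KRT7, another simple keratin, -1.34 and -1.62. After adjustment for GC and length the ZM11-kd1 values were 0.98 for KRT19, 2.76 for DSC2, -1.32 for TJP1 and -1.04 for DSP, each still called.

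Among 44 further mesenchymal genes, 35 were tested and 9 were too low. In ZM11-kd1 14 rose, 13 fell and 8 were not called (median 0.23), and in ZM11-kd2 9 rose, 18 fell and 8 were not called (median -0.98). That is 77.1% called in each, about the share among all genes (78.0% and 73.4%). With library totals alone the ZM11-kd1 split was 11 higher and 13 lower, beside 4596 and 8420 among all genes. Between the knockdowns, with TMM, 7 were higher and 19 lower in ZM11-kd2 (median -0.83, where that of all genes was 0.02). That is 74.3% called, beside 68.8% of all genes (34.9% higher and 33.8% lower). In the DESeq2 Wald test, run without the filter, 4 were higher. CDH11, POSTN, THY1 and FAP had at most 3 counts in every library. The secreted protease inhibitor TIMP1 rose from 110 ± 0.02 CPM to 687 ± 23.3 in ZM11-kd1 and 271 ± 22.6 in ZM11-kd2, by 2.64 and 1.30 on the log2 scale. S100A4, a calcium-binding protein, rose by 2.93 and 1.54 from 0.586 ± 0.05 CPM. TPM2, a tropomyosin, rose in ZM11-kd1 by 2.69, while in ZM11-kd2 its log2 difference was -0.0062 (edgeR adjusted p = 0.973). Smooth muscle actin, ACTA2, rose by 2.33 in ZM11-kd2, and differed from control by 0.19 in ZM11-kd1 (edgeR adjusted p = 0.538). Among the named falls, CCN2, a matricellular protein, went from 254 ± 1.19 to 14.8 ± 1.04 and 7.85 ± 0.94 CPM (log2 -4.11 and -5.02), VCAN, a proteoglycan, had -4.24 and -1.68, and FBLN1, a fibulin, had -3.05 and -3.20. The intermediate filament gene NES had -1.38 and -3.76 and TNC, a matrix glycoprotein, -2.51 and -3.30. All of these falls were called in both knockdowns. The same adjustment left ZM11-kd1 values of 1.75 for TIMP1, 2.28 for S100A4, 1.90 for TPM2 and -3.31 for VCAN, each still called.

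Other transcription factors tied to the transition numbered 25, of which 18 were tested. In ZM11-kd1 8 rose and 7 fell (median 0.12), and in ZM11-kd2 7 rose and 7 fell (median -0.42). The shares called, 83.3% and 77.8%, lay near those of all genes, 78.0% and 73.4%. With library totals alone the ZM11-kd1 split was 6 higher and 9 lower, beside 4596 and 8420 among all genes. TWIST2, TBXT, SOX10 and ETS1 had at most 3 counts in every library. FOXC1, a forkhead factor, rose from 1.61 ± 0.18 CPM to 8.21 ± 0.09 and 8.44 ± 1.08 (log2 2.35 and 2.39), and the homeobox factor SIX2 rose by 2.42 and 1.49. PRRX2 rose in ZM11-kd1 by 1.63, a call lost after adjustment for GC and length (0.37), and had -0.44 in ZM11-kd2 (edgeR adjusted p = 0.0727). TCF3, which encodes an E protein, rose in ZM11-kd2 by 0.75 and had 0.05 in ZM11-kd1 (edgeR adjusted p = 0.419). WWTR1, the Hippo pathway coactivator TAZ, fell in both (-2.23 and -1.11). Its DNA-binding partner TEAD1 had -1.01 and -0.56, SOX9 -1.23 and -0.39 and TCF4 -0.80 and -1.39, all called. SOX4 was called in opposite directions, from 173 ± 5.55 CPM in control to 307 ± 3.21 in ZM11-kd1 (log2 0.83) and 77.5 ± 0.42 in ZM11-kd2 (log2 -1.16), and ZM11-kd2 was lower than ZM11-kd1 by 1.99 (edgeR adjusted p = 2.48e-12). Adjustment for GC and length took SIX2 to 1.82 and TEAD1 to -0.19 in ZM11-kd1.

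**Figure D5:**
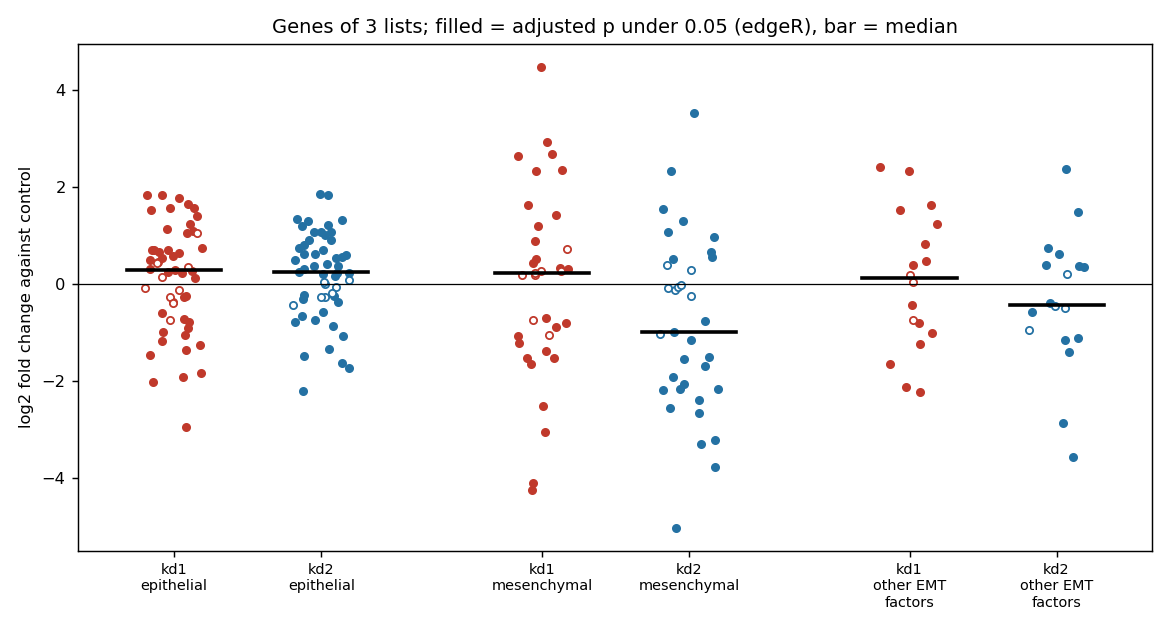
Log2 fold change against control (y axis) of each tested gene of 3 lists in ZM11-kd1 (kd1) and ZM11-kd2 (kd2), with filled points for an adjusted p under 0.05 and a bar for the median. Each list holds genes on both sides of 0, and the median of the 35 mesenchymal genes was 0.23 in ZM11-kd1 and -0.98 in ZM11-kd2.

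Corepressors and regulators of the SNAI and ZEB proteins numbered 13, all tested. In ZM11-kd1 6 rose and 5 fell (median -0.05) and in ZM11-kd2 6 rose and 4 fell (median 0.02), which is 84.6% and 76.9% called beside 78.0% and 73.4% of all genes. HDAC2, a histone deacetylase, rose in ZM11-kd1 by 0.60 (1.49 after adjustment for GC and length) and in ZM11-kd2 by 0.20. BTRC, a ubiquitin ligase subunit that targets SNAI1, rose by 0.25 and 1.08. FBXL14, another ligase subunit that targets SNAI proteins, fell in both (-1.44 and -0.48). SIN3A, a corepressor scaffold, had -1.32 and -0.27, which were -0.70 and -0.042 after that adjustment, the second not called. The C-terminal binding protein CTBP1 had 0.48 and 0.34. The first of these was -0.0058 after the same adjustment and 0.12 with library totals alone, called in neither. Its paralog CTBP2 had -0.55 in ZM11-kd1, which turned to 0.20 after that adjustment, and 0.40 in ZM11-kd2. HDAC1 had 0.27 in ZM11-kd1, which turned to -0.083 with library totals alone, and -0.52 in ZM11-kd2.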

How the data were processed

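The 6 RNA libraries of 22Rv1 cells, 2 per group, were grouped by their labels. The authors checked reads with FastQC 0.11.9, trimmed them with AdapterRemoval and aligned them to hg38 with STAR 2.7.9a. The submitters' processing notes also name HTSeq 0.13.5, with no role. The deposited table holds, for each gene symbol, a whole-number count of reads, not normalized. The counting annotation, its strand setting and the treatment of multi-mapping reads are not given in the sources used here.

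From these counts, filterByExpr kept 16510 of 35322 genes, and edgeR 4.0.16 in R 4.3.3 fitted all 6 libraries at once with TMM factors and 3 residual degrees of freedom. Levels are TMM-normalized CPM, in which 1 count was 0.0280 to 0.0338 CPM. The quasi-likelihood test with Benjamini-Hochberg adjustment over all genes tested was used, with a threshold of 0.05 for a call. Standard errors came from the F statistic, as the absolute log2 fold change over its square root. Values after ± are SDs of 2 libraries. Lengths, exons, 3′ UTRs and coordinates are those of the canonical transcripts or genes in GENCODE 44 (GRCh38), matched by symbol for 32565 of 35322 symbols. Each member's 3′ UTR was compared with 3′ UTRs between 0.8 and 1.25 times its length. Promoter windows and miRNAs came from RefSeq tables (GRCh38.p14). A gene with at most 3 counts in every library was taken as not detected, a floor for counting error only.

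The alternatives were DESeq2 1.42.0 size factors, library totals alone, the DESeq2 Wald test with its own size factors and filtering in place of filterByExpr, testing unfiltered genes or those with 10 or more counts in each library, the replicate number as a block, fits of the compared groups alone, a lowess correction for GC content and length (15821 genes, 95.8% of those tested), and each library left out. On simulated counts for 16028 genes with 200 changed 2-fold, 98.5% were recovered in either knockdown, with 11 false calls in ZM11-kd1 and 2 in ZM11-kd2. The simulation gave every gene the same spread, changed only well-counted genes and left most genes unchanged, unlike these data. It therefore does not speak for the calls of the scarce members. The members, lists and tests were chosen with earlier results of these data known. Named were the 10 members, ZMYND11, and per list and knockdown up to 3 called genes with the largest rise and up to 3 with the largest fall, among those averaging 1 log2 CPM or more, with both libraries on one side of both controls. VIM-AS1, ZEB1-AS1, ZEB2P1, COL1A1 and the markers were named beside a member's result after their values were seen. The 2 libraries of a group differed by more than sampling noise, and each was counted as a replicate. Same-numbered libraries did not deviate together (correlations -0.044 to 0.0062).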

Additional observations from a re-analysis of the deposited data

Results flagged for a closer look

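For 7 of the 10 members the knockdowns differed from each other in the direct edgeR test of ZM11-kd2 against ZM11-kd1. The log2 difference was -1.56 for VIM, -1.18 for TWIST1, -0.51 for FN1, -0.50 for EPCAM and -0.48 for CDH2. For ZEB1 it was 1.74 and for ZEB2 -1.73. Among all genes tested 68.8% were called in this comparison, so a difference between the knockdowns was the usual case. VIM, TWIST1, CDH2 and EPCAM lay on the same side of control in both knockdowns, nearer to control in ZM11-kd2, while FN1 lay further from control in ZM11-kd2.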

How the results depend on the processing

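Of 415 values of the members recomputed under other settings, 375 kept direction and side of the threshold, 23 lost a call, 5 gained one and 12 changed sign. VIM, TWIST1 and CDH2 kept their calls under all 14 settings in every comparison. Signs changed with library totals alone for CDH1 (-0.14 in ZM11-kd1, adjusted p = 0.0117, -0.032 in ZM11-kd2 and 0.11 between the knockdowns) and, in ZM11-kd1, ZEB1 (-0.027), SNAI1 (-0.30) and HDAC1 (-0.083). After GC content and gene length correction they changed in ZM11-kd1 for SNAI1 (-0.56), CTBP1 (-0.0058) and CTBP2 (0.20), and between the knockdowns for ZEB1-AS1 (0.38). With a library left out, ZEB1 in ZM11-kd1 ran from -0.17 (without control replicate 2) to 1.07, SNAI1 in ZM11-kd1 from -0.54 (without ZM11-kd1 replicate 2; -0.22 without control replicate 2) to 0.50, SNAI1 between the knockdowns from -1.03 to 0.00096 (without ZM11-kd1 replicate 2), and SNAI2 between them from -0.050 (without ZM11-kd1 replicate 1; -0.0014 without ZM11-kd2 replicate 2) to 0.51. The cause was not tested.

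The members called lower in ZM11-kd1, 2 as reported, were 1 in the DESeq2 Wald test, with the replicate block, after GC content and gene length correction and with any library left out (1 in each). In ZM11-kd2 the members called lower, 1 as reported, were 2 with at least 10 counts in every library or after that correction. Members higher in ZM11-kd2 than in ZM11-kd1 were 2 with library totals alone, and mesenchymal genes higher there, 7 as reported, were 4 in the DESeq2 Wald test, which was also run without the filter (23730 genes), and 5 to 8 with a library left out. Members called ranged from 6 to 8 in ZM11-kd1, 5 to 8 in ZM11-kd2 and 6 to 8 between the knockdowns. After GC content and gene length correction ZEB1 (0.95) and ZEB2 (1.56) were called in ZM11-kd1 and CDH1 between the knockdowns (-0.37).

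The replicate numbers did not pair the libraries. The replicate block left all members' calls as they were except SNAI2 in ZM11-kd1 (adjusted p = 0.0714) and CDH1 in ZM11-kd2 (adjusted p = 0.051). CDH1 in ZM11-kd2 was also lost with at least 10 counts in every library (adjusted p = 0.0815), with only the groups compared (adjusted p = 0.0528), without control replicate 1 (0.12) and without control replicate 2 (0.15). ZEB2 could not be tested with at least 10 counts in every library. Low counts limit ZEB1, ZEB2, SNAI1 and SNAI2.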
